A study of Rattus norvegicus with 2 samples.

Results

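Cadherins are membrane proteins whose extracellular repeats bind calcium and, for the most part, the same cadherin on a neighboring cell. Cadherins and protocadherins were examined on 2 Affymetrix whole-transcript rat arrays, as all genes whose only annotated symbol began with Cdh and a digit or with Pcdh. They were 52 of the 18166 named genes, 22 cadherins, 11 solitary protocadherins and 19 protocadherins of the beta cluster, each with 1 probe set.

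The SMiN array held C6 glioma, a glial tumor line of the rat, that had been kept for 35 days in the GSK3 inhibitor CHIR99021 (20 μM) and the adenylyl cyclase activator forskolin (100 μM). According to the methods these cells grew on Matrigel in a neural induction medium with the supplements N2 and B27 and the factors BDNF and GDNF. The C6 glioma array held the undifferentiated line, which the methods describe as grown in serum-containing DMEM. The sample labels instead attach the treatment text and the serum medium to both samples, and the description in the methods was used. Medium, coating, small molecules and time in culture therefore cannot be told apart, and the cells came from 1 line. There was 1 array per condition, so no replicate error exists, nothing was tested, and each difference describes this pair of arrays.

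Classical cadherins hold cells together at adherens junctions, where their cytoplasmic tails bind β-catenin and p120-catenin, and α-catenin connects β-catenin to actin. Switches among them accompany neural tube closure, neural crest migration and the sorting of neurons into nuclei. Protocadherins have longer extracellular parts and lack the catenin-binding tail of the classical type. The solitary delta protocadherins act in axon and cell migration, while the alpha, beta and gamma clusters give neurons the varied surface labels used in self-recognition.

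Values are log2 signals of probe sets as the authors deposited them, so a difference of 1 is 2-fold, and differences are SMiN minus C6 glioma. To mark dim signals, 232 probe sets for olfactory and vomeronasal receptors, which glial cells are not known to use, were taken as unexpressed, and their 95th percentile served as a floor. This floor was 5.05 for SMiNs and 4.68 for C6 glioma. A fold whose dimmer value fell under the floor was computed from the floor instead and reads "at least". Of the 52 genes, 18 reached the floor on the SMiN array and 14 on the C6 glioma array. A total of 19 (36.5%) reached it on at least 1 array, and 33 lay below it on both. Of the 18166 named genes, 10093 reached it on the SMiN array, 11171 on the C6 glioma array and 62.9% on at least 1. Signal depends on the probe set, so levels were not compared between genes. The arrays measured RNA of whole cultures, in which fewer cells of a kind and less RNA per cell cannot be told apart.

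Marker genes were read on the same arrays. The floor was higher on the SMiN array (5.05) than on the C6 glioma array (4.68). A gene of equal value could therefore reach it in C6 glioma only, as the epithelial markers Cldn3 and Cldn4 did. Ocln and Myod1 had slightly higher values in SMiNs and also reached it in C6 glioma only. All 9 glioma and glial markers reached the floor on the C6 glioma array and 8 did on the SMiN array, with summed log2 signals of 65.3 in SMiNs and 76.3 in C6 glioma. Of these 9, 5 passed 2-fold on the lower side in SMiNs and none on the higher side, with a median difference of -1.05. Among named genes at the floor, 12.8% passed on the lower side and 5.57% on the higher side. The 5 markers were Pdgfra (16.6-fold) and Cspg4 (at least 7.68-fold), which mark glial precursors, and the progenitor markers Vim (2.95-fold), Nes (2.12-fold) and Sox2 (2.07-fold). Nes and Sox2 did not pass 2-fold under quantile normalization. While 7 of the 9 were lower in SMiNs, S100b was 1.72-fold higher and Olig2 was equal on both arrays. Of the 10 neuronal markers, 5 reached the floor in SMiNs and 6 in C6 glioma, with sums of 54.9 in SMiNs and 50.2 in C6 glioma. In SMiNs 9 of the 10 were higher and 1 was lower, with a median difference of 0.53. Of all named genes, 39.3% were higher and 38.0% lower. Over the 6 that reached the floor on either array the median was 0.25. Tubb3, a neuronal tubulin, was 2.24-fold higher in SMiNs. Snap25 (1.41-fold), Syp (1.27-fold), Map2 (1.11-fold) and Gap43 (1.06-fold) were above the floor on both arrays and higher by less than 2-fold. The other 4 higher markers lay below the floor on both arrays. The 1 lower gene was the neuronal nuclear marker Rbfox3, with 4.90 in SMiNs and 4.94 in C6 glioma. Of 9 measured epithelial markers, 2 reached the floor in SMiNs and 5 in C6 glioma (sums 41.2 in SMiNs and 41.1 in C6 glioma). In SMiNs 4 of the 9 were higher, 4 were equal and 1 was lower. The lower one was Epcam, an epithelial adhesion protein, 2.01-fold lower, though not past 2-fold under quantile normalization. Krt8, above the floor on both arrays, was 1.74-fold higher in SMiNs. Of 5 endothelial markers, 1 reached it in SMiNs and 3 in C6 glioma (sums 22.5 in SMiNs and 23.2 in C6 glioma). Of 4 muscle markers, 1 reached it in SMiNs and 2 in C6 glioma (sums 18.9 in SMiNs and 18.4 in C6 glioma). Their part in the cadherin signals was not tested.

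Of the 52 genes, 5 had at least 2-fold higher signals in SMiNs than in C6 glioma, the cadherins Cdh6 and Cdh11 and the protocadherins Pcdhb12, Pcdhb20 and Pcdhb22. The background was 4.27% of all named genes. Another 3 were at least 2-fold lower, Cdh13, Cdh19 and Pcdh18, against a background of 8.12% of all named genes. Among the 11427 named genes that reached the floor on either array, 5.57% passed 2-fold on the higher side and 12.8% on the lower side. Of the 19 members that reached the floor, 4 passed 2-fold on the higher side and 3 on the lower. All 4 higher genes, Cdh6, Cdh11, Pcdhb12 and Pcdhb22, reached the floor only on the SMiN array, where they were higher. Their count is therefore not independent of the filter. Measured from the floor, 574 of the 11427 named genes passed 2-fold on the higher side and 1365 on the lower. Measured from the floor, Cdh6 and Cdh11 still passed 2-fold, as did Cdh13, Cdh19 and Pcdh18, while the 3 beta genes did not. The median difference of the 52 genes was 0.18, against 0 for all named genes. With median centring it was 0.12, against -0.063 for all named genes, and with quantile normalization 0.099, against -0.062. Leaving out the beta cluster, a choice made after the values were seen, brought the median as deposited to 0.025. Over the 19 members that reached the floor the median as deposited was 0.042, against -0.080 for all named genes at the floor. Over the 12 of these outside the beta cluster it was -0.76.

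**Figure D1:**
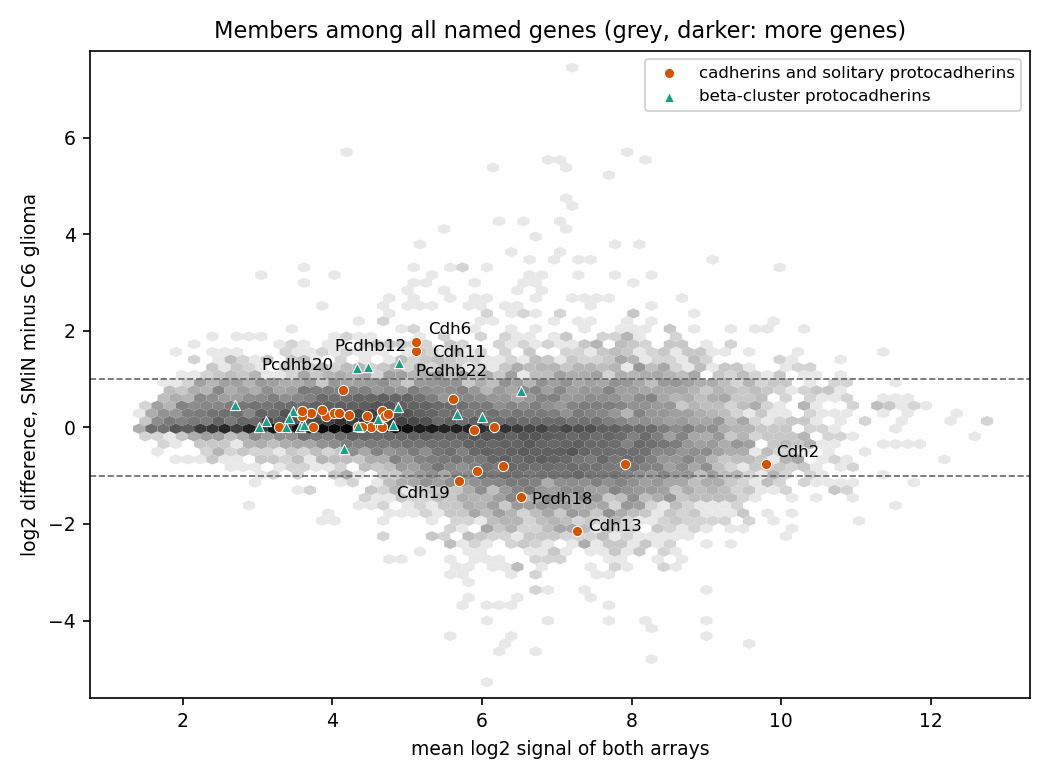
The log2 difference, SMiN minus C6 glioma, against the mean log2 signal of both arrays, for the 52 cadherin and protocadherin genes (colored points) among all 18166 named genes (grey hexagons, darker where more genes lie, on a log scale). Dashed lines mark 2-fold: Cdh6, Cdh11, Pcdhb12, Pcdhb20 and Pcdhb22 lie above the upper line, and Cdh13, Cdh19 and Pcdh18 below the lower.

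Type I classical cadherins form the strong homophilic contacts of epithelia, muscle and neural tissue. Cdh2, which encodes N-cadherin, the type I cadherin of neural tissue, had a log2 signal of 9.42 in SMiNs and 10.17 in C6 glioma, 1.68-fold lower. It lay far above the floor on both arrays and did not reach 2-fold. Cdh3, or P-cadherin, was also above the floor and stood at 6.15 on each array. Of all 36685 probe sets, 7312 (19.9%) had an identical value on both arrays, so an equal value was not read as an unchanged transcript. The other 3 type I cadherins lay below the floor on both arrays. Cdh1, the E-cadherin of epithelia, had 4.52 on both, Cdh4, the R-cadherin of retina and brain, had 4.67 on both, and Cdh15, the M-cadherin of muscle, had 4.65 in SMiNs and 4.63 in C6 glioma.

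Type II classical cadherins are expressed in combinations that differ between brain nuclei, spinal motor pools and mesenchyme. Cdh6, also called K-cadherin and known from kidney, hindbrain and neural crest, had 5.99 in SMiNs and 4.23 in C6 glioma, at least 2.48-fold higher. Cdh11, a cadherin of mesenchyme and migrating neural crest, had 5.91 in SMiNs and 4.32 in C6 glioma, at least 2.34-fold higher. Both genes were above the floor on the SMiN array only. As deposited, the difference was 1.76 for Cdh6 and 1.59 for Cdh11, the largest positive differences among the 52 genes.

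Cdh19, a cadherin of Schwann cell precursors, went the other way, with 5.13 in SMiNs and 6.25 in C6 glioma, 2.17-fold lower. Its SMiN value lay just above the floor. Cdh24 had 5.87 in SMiNs and 5.93 in C6 glioma, a difference of -0.059 that turned to 0.014 under quantile normalization. The remaining 8 of the 12 measured type II genes lay below the floor on both arrays, with differences between 0 and 0.77. The widest was that of Cdh8, a cadherin of cortical and thalamic circuits, with 4.52 in SMiNs and 3.75 in C6 glioma. Cdh5, the VE-cadherin of endothelium, had 4.23 in SMiNs and 3.94 in C6 glioma. Cdh18 was not analysed here.

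The other cadherins differ from the classical type in their tails or in their number of repeats. Cdh13 encodes T-cadherin, which has no cytoplasmic tail, is held to the membrane by a GPI anchor and binds adiponectin. Its log2 signal was 6.21 in SMiNs and 8.34 in C6 glioma, 4.40-fold lower. This was the widest difference among the 52 genes in either direction, and no other member passed 4-fold. Both values were above the floor. The kidney cadherin Cdh16, the intestinal cadherin Cdh17, Cdh23, which forms the tip links of hair cells with Pcdh15, and Cdh26 lay below the floor on both arrays, with differences between 0 and 0.31.

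Delta-1 protocadherins carry a tail motif that binds protein phosphatase 1. All 3 measured members were above the floor on both arrays and lower in SMiNs, none by 2-fold. Pcdh9 had 5.48 in SMiNs and 6.39 in C6 glioma, 1.88-fold lower. Pcdh1, which also joins airway epithelial cells, had 5.89 in SMiNs and 6.68 in C6 glioma, 1.74-fold lower. Pcdh7, known as NF-protocadherin for its part in neural fold adhesion in frogs, had 7.53 in SMiNs and 8.29 in C6 glioma, 1.70-fold lower. Their differences lay in a narrow range, from -0.91 to -0.76, and all 3 stayed negative under median centring and quantile normalization. Of all named genes at or above the floor, 54.2% had a lower value in SMiNs as deposited, 70.7% with median centring and 54.5% with quantile normalization. Pcdh11x was not analysed here.

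Delta-2 protocadherins act through the WAVE actin regulator and steer axons and migrating cells. Pcdh18, a delta-2 gene whose tail binds the adaptor Dab1 in mice, had 5.80 in SMiNs and 7.24 in C6 glioma, 2.73-fold lower, with both values above the floor. The other 4 delta-2 genes lay below the floor on both arrays. These were Pcdh8, Pcdh10, Pcdh17 and Pcdh19, the last of them the X-linked gene mutated in a human epilepsy of girls, with differences between 0.23 and 0.33.

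Of the 3 remaining solitary protocadherins, Pcdh20 had 5.90 in SMiNs and 5.32 in C6 glioma, a difference of 0.58, with both values above the floor. Pcdh15 had 4.88 in SMiNs and 4.61 in C6 glioma, and Pcdh12, a protocadherin of endothelium, had 4.35 on both arrays. Both lay below the floor. Over the 33 genes outside the beta cluster, 17 had higher values in SMiNs, 8 had lower values and 8 had equal values. Of all named genes, 39.3% had higher values, 38.0% lower and 22.7% equal. Of the 33, 12 reached the floor on either array. Of these 12, 3 were higher, 8 lower and 1 equal, with a median difference of -0.76. Among all named genes at the floor, 32.7% were higher and 54.2% lower. The 21 genes below the floor on both arrays had differences between 0 and 0.77. With median centring 16 of the 33 were higher and 17 lower, against 35.4% and 64.6% of all named genes. With quantile normalization 18 were higher and 15 lower, against 43.0% and 56.9% of all named genes.

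**Figure D2:**
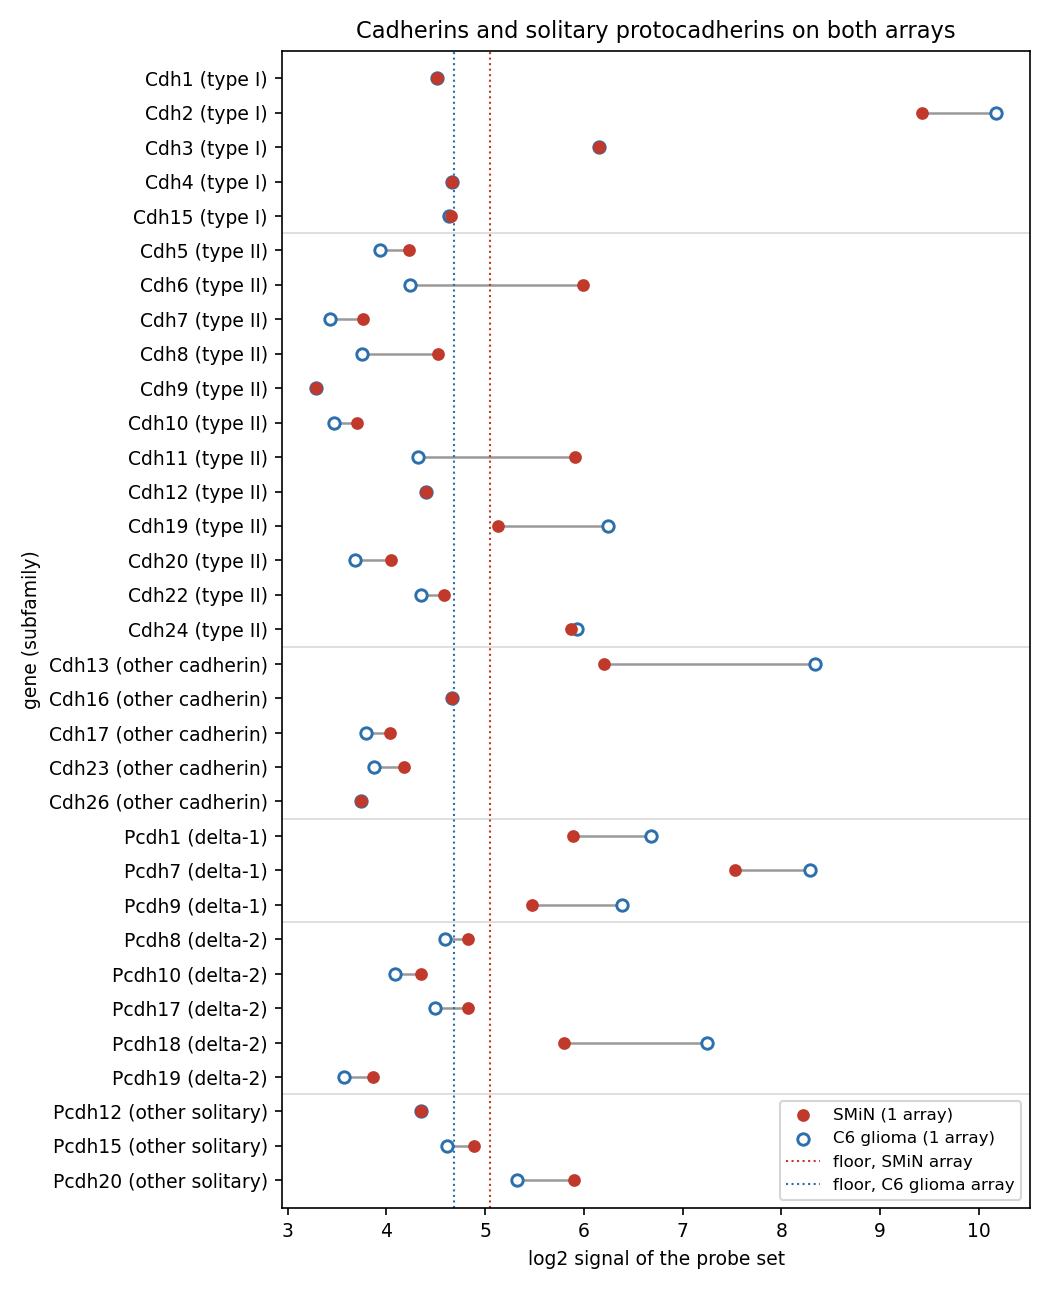
Log2 signal of the 33 cadherin and solitary protocadherin probe sets on the SMiN array (filled points) and the C6 glioma array (open points), 1 array each, with dotted lines at the floors of 5.05 and 4.68. Cdh6 and Cdh11 lie above the floor in SMiNs only, Cdh13, Pcdh18, Cdh2 and the delta-1 genes lie lower in SMiNs, and most other points lie left of the floors.

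The beta-cluster protocadherins are single-exon genes that lie side by side, each with its own promoter. Much of their cluster is known in mouse and human to carry a conserved sequence element upstream of the start, to which the insulator protein CTCF binds. RefSeq promoters of the GRCr8 build, 250 bases upstream of the annotated gene start, were found for 36 of the 52 genes and for 14 of the 19 beta genes. The 8 letters TGGCGCTG (or CAGCGCCA on the other strand), a core chosen after the sequences had been read, stood in 13 of these 14 beta promoters. They stood in 0 of 22 promoters of the other members and in 1.18% of 27457 promoters of the table. Pcdhb1 was the beta gene without them. Stretches of 32 bases around the core are shown because this sequence is shared across the cluster. Pcdhb8, Pcdhb12, Pcdhb14 and Pcdhb19 reached the floor, Pcdhb20 passed 2-fold below it, and Pcdhb3 had equal values. The stretches are from the plus strand, 5′ to 3′, with the core in capitals:
Pcdhb8, chr18:29339258-29339289: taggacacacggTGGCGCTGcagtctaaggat
Pcdhb12, chr18:29413648-29413679: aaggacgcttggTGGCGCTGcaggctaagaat
Pcdhb14, chr18:29431809-29431840: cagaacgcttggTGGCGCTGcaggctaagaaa
Pcdhb19, chr18:29478764-29478795: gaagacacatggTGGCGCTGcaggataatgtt
Pcdhb20, chr18:29485810-29485841: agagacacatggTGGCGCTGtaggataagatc
Pcdhb3, chr18:29285604-29285635: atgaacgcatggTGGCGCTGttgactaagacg

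Genes with this core stood on both sides of the floor. Pcdhb19 had 6.90 in SMiNs and 6.15 in C6 glioma, 1.69-fold higher, and Pcdhb14 had 6.10 in SMiNs and 5.89 in C6 glioma, 1.16-fold higher. Both were above the floor on both arrays. Pcdhb3, with the same core, had 3.02 on both arrays, below it. A match in these letters is a description of sequence and says nothing about binding in these cells.

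Motifs of factors downstream of the small molecules and of cadherin repressors were searched in the same windows. The full cAMP response element TGACGTCA, the site of the CREB factors that forskolin activates through cAMP, stood in 0 of the 36 member promoters and in 1.70% of all promoters. Its shorter form TGACG, which the full element contains, stood in 1 of 14 beta promoters, 4 of 22 other member promoters and 19.0% of all. The TCF site CTTTGAT, through which β-catenin acts, stood in Pcdhb2 and Pcdhb7 and in 3.18% of all promoters. Its other form, CTTTGAA, stood in Pcdhb4, Pcdhb21 and Pcdh7 and in 4.63% of all. The E-box CAGGTG, which Snail and Zeb repressors bind, stood in Pcdhb20 and Pcdh15 and in 15.6% of all. All were searched on both strands. The full cAMP response element is so rare among all promoters that 36 promoters cannot show a lack of it. A motif present or absent in these windows says nothing about binding in these cells.

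Of the 19 beta genes, 15 had higher signals in SMiNs, 1 had a lower signal and 3 had equal signals, with a median difference of 0.19. This is a share of 78.9%, against 39.3% of all named genes and 50.4% of the 6739 named genes below the floor on both arrays. The direction of the dim beta genes depended on the scaling. With median centring 12 of the 19 were higher and 7 lower, and with quantile normalization 11 were higher and 8 lower. The shares higher were thus 63.2% and 57.9%. For all named genes the share higher was 35.4% with median centring and 43.0% with quantile normalization. For the named genes below the floor on both arrays as deposited it was 45.6% and 39.1%. The mean difference was 0.34 for the beta genes and 0.22 for the receptor probe sets used for the floor, and the median was 0.19 for the beta genes and 0.081 for the receptors. The part of the receptor shift in the beta signals was not tested.

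Pcdhb22 had 5.55 in SMiNs and 4.22 in C6 glioma, at least 1.83-fold higher against the floor and 2.52-fold as deposited. Pcdhb12 had 5.10 in SMiNs, barely above the floor, and 3.86 in C6 glioma, at least 1.33-fold higher. Pcdhb20 had 4.95 in SMiNs and 3.71 in C6 glioma, a difference of 1.24 with both values below the floor. These 3 genes passed 2-fold as deposited and under both scalings, but not when values below the floor were raised to it. Of the 232 receptor probe sets taken as unexpressed, 13 also passed 2-fold on the higher side as deposited, and 2 on the lower. The part of such shifts in these 3 genes was not tested.

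Pcdhb15 had 5.80 in SMiNs and 5.52 in C6 glioma, 1.21-fold higher, and lay above the floor on both arrays. Pcdhb8 had 5.09 in SMiNs and 4.67 in C6 glioma, at least 1.33-fold higher. Pcdhb17 had 4.83 in SMiNs, below the floor, and 4.79 in C6 glioma, above it, and its difference of 0.042 changed sign under median centring and quantile normalization. The other 11 beta genes below the floor on both arrays, apart from Pcdhb20, had differences of at most 0.47 either way, and the lower gene was Pcdhb13, with 3.93 in SMiNs and 4.38 in C6 glioma.

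Along chromosome 18 of GRCr8, the beta genes with a signal at or above the floor lay in the middle and at the far end of the cluster. Among the ordered beta genes, Pcdhb1 to Pcdhb7 were below the floor on both arrays, and 4 of the 6 from Pcdhb14 to Pcdhb22 reached it. Pcdhb13 and Pcdhb15 have no entry in the RefSeq table for their Entrez numbers and were not placed. Beta genes are close copies of each other, and how far the probes of 1 gene also bind transcripts of another was not tested.

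**Figure D3:**
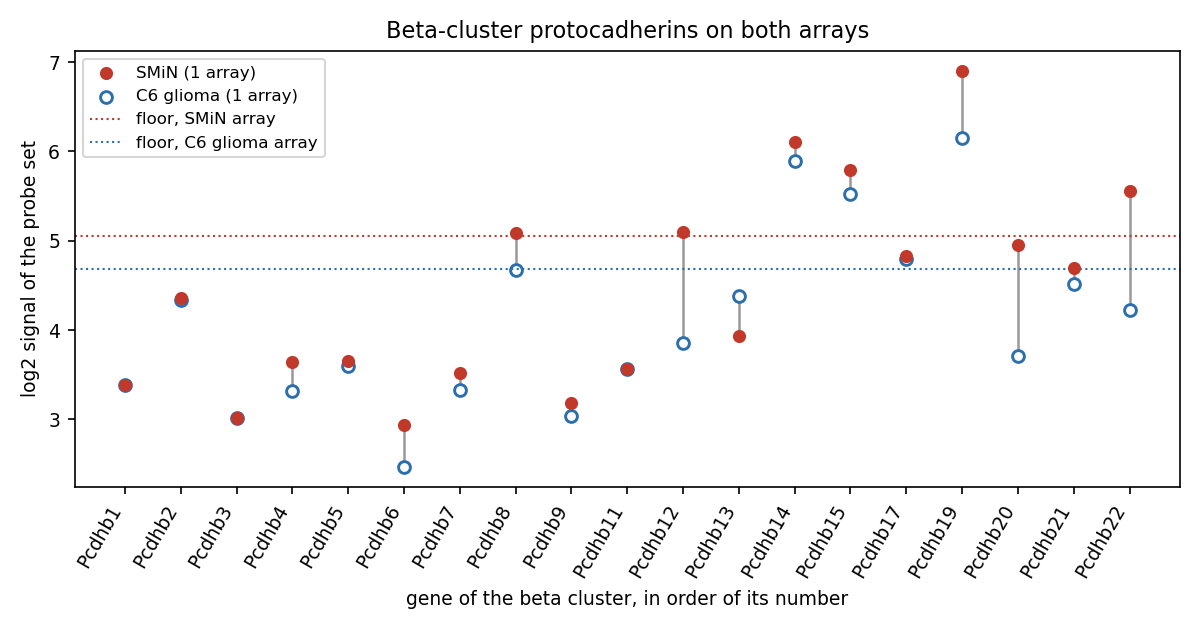
Log2 signal of the 19 beta-cluster probe sets on the SMiN array (filled points) and the C6 glioma array (open points), 1 array each, in order of gene number, with dotted lines at the floors of 5.05 and 4.68. Pcdhb12, Pcdhb20 and Pcdhb22 have the longest lines, and Pcdhb1 to Pcdhb7 lie below both floors.

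Cadherin partners at the junction were read from lists chosen with earlier results of these arrays known. Most of their genes reached the floor, where 12.8% of named genes passed 2-fold on the lower side and 5.57% on the higher side. The wider superfamily was mostly below it, and 8.12% of all named genes passed on the lower side. Of 11 measured catenins and plakophilins, 2 passed 2-fold on the lower side in SMiNs and none on the higher side, a count near that background, with a median difference of -0.45. Ctnnb1, which encodes β-catenin, the catenin that GSK3 marks for degradation, had 8.89 in SMiNs and 9.88 in C6 glioma, 1.99-fold lower, and passed 2-fold under median centring. Ctnnd1, or p120-catenin, which keeps cadherins at the surface, had 8.27 in SMiNs and 9.21 in C6 glioma, 1.91-fold lower. Ctnna1, or α-catenin, had 8.70 in SMiNs and 9.17 in C6 glioma, 1.39-fold lower. These 3 catenins thus had lower signals in SMiNs that did not reach 2-fold as deposited, as did Cdh2. Ctnnd2, the neural relative of p120-catenin, was 1.36-fold higher in SMiNs. The 2 genes past 2-fold were Pkp2, a plakophilin of desmosomes, with 5.37 in SMiNs and 7.94 in C6 glioma (5.93-fold lower), and Ctnna3, with 5.01 in SMiNs and 6.04 in C6 glioma. Against the floor Ctnna3 was at least 1.98-fold lower.

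Of 10 junction linkers and nectins, 5 passed 2-fold on the lower side and none on the higher side, against 12.8% and 5.57% of named genes at the floor, with a median difference of -1.08. Vcl, or vinculin, which strengthens α-catenin at actin under tension, had 7.13 in SMiNs and 8.97 in C6 glioma, 3.58-fold lower. The actin-binding protein Lima1 was 2.98-fold lower, the α-actinins Actn4 and Actn1 were 2.59-fold and 2.55-fold lower, and the scaffold Tjp1 was 2.27-fold lower. These proteins also work at focal adhesions and stress fibers, apart from Tjp1, a protein of tight junctions. Nectins, the junction proteins that need no calcium, differed in direction. Nectin2 had 6.87 in SMiNs and 6.24 in C6 glioma, and Nectin3 had 7.44 in SMiNs and 8.43 in C6 glioma, past 2-fold under median centring.

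**Figure D4:**
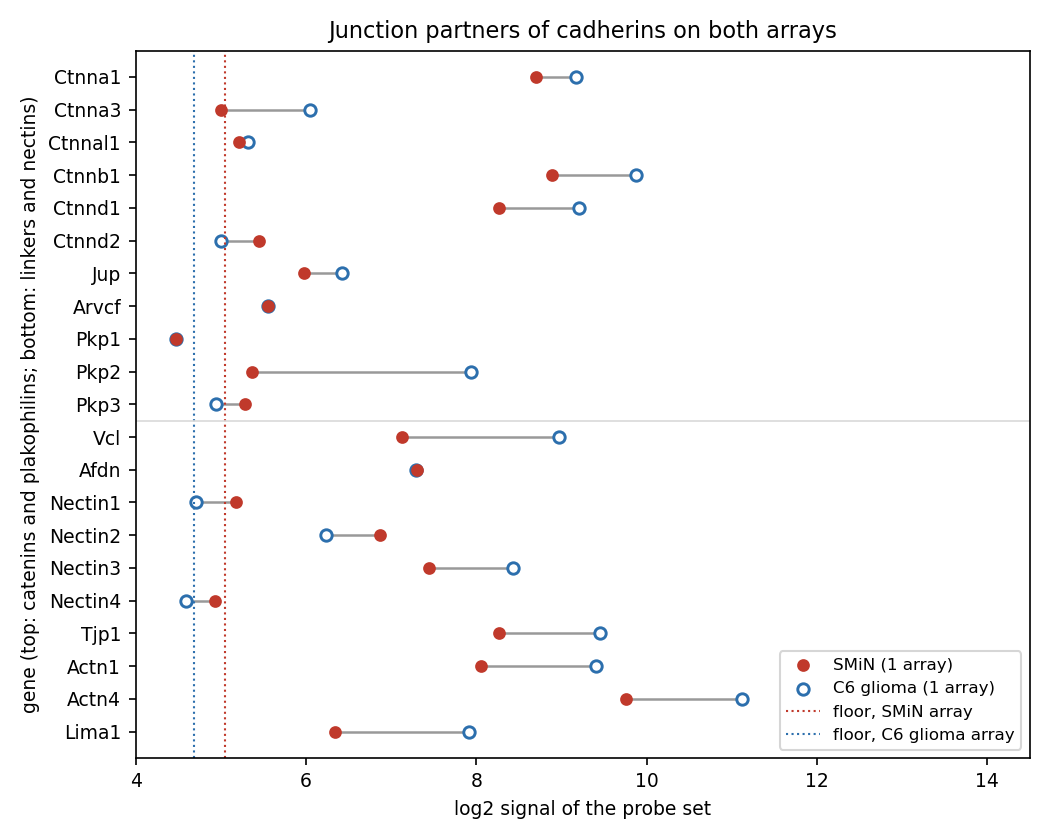
Log2 signal of 11 catenin and plakophilin probe sets (top) and 10 probe sets of junction linkers and nectins (bottom) on the SMiN array (filled points) and the C6 glioma array (open points), 1 array each, with dotted lines at the floors of 5.05 and 4.68. Pkp2, Ctnna3, Vcl, Lima1, Actn4, Actn1 and Tjp1 lie more than 1 log2 unit lower in SMiNs, and Ctnnb1 lies just under 1 unit lower.

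Other relatives of cadherins were mostly dim. Of 20 measured genes of the wider superfamily, 6 reached the floor on either array, 1 passed 2-fold on the lower side and none on the higher side, with a median of 0. The lower gene was Fat1, a giant protocadherin of cell polarity, with 8.24 in SMiNs and 9.79 in C6 glioma, 2.93-fold lower. None of 6 proteases that process cadherins differed by 2-fold as deposited, and 1, Adam17, passed it on the lower side under median centring. Of 8 repressors of the E-cadherin gene, Zeb1 (2.30-fold) and Zeb2 (2.12-fold) passed 2-fold on the lower side as deposited and none on the higher side. Neither passed it under quantile normalization. Cdh1 itself lay below the floor on both arrays.

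Of 6 regulators of the clustered protocadherins, 1 passed 2-fold on the lower side and none on the higher side. It was the cohesin subunit Rad21, with 8.67 in SMiNs and 9.70 in C6 glioma, 2.05-fold lower, and it did not pass 2-fold under quantile normalization. Ctcf, named after its value was seen because it binds the element shown above, had 7.71 in SMiNs and 8.59 in C6 glioma. Of 10 genes of the WAVE complex and of kinases that protocadherins bind, 2 passed 2-fold on the lower side and none on the higher side, again near the 12.8% of named genes at the floor. Abi2, a WAVE complex subunit, also passed under median centring. As deposited they were the WAVE subunit Cyfip2 (2.41-fold) and Ptk2, the focal adhesion kinase (2.38-fold).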

How the data were processed

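Per the labels and methods, total RNA was labeled with a whole-transcript kit and hybridized to Affymetrix arrays, 1 of SMiNs and 1 of C6 glioma, and analysed with GeneChip Command Console. The authors deposited log2 signals of 36685 probe sets. How they were summarized and normalized is not given in the sources used here, and base 2 was taken from the values. No further scaling was applied. Probe sets with 1 gene symbol in the platform annotation (18511) named 18166 genes, with the brighter probe set kept for a gene with several. Those with several symbols (575) or unnamed here (17599) were left out. Genes were listed as differing at 2-fold, with no test, because 1 array per condition has no error. The floor used receptor symbols beginning with Olr, Vom1r or Vom2r.

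The members and lists were chosen with earlier results of these data known. Members that reached the floor on either array, or differed by 2-fold or more, are named with values. List genes are named where they differ by at least 2-fold and reach the floor, plus Ctnnb1, Ctnnd1 and Ctnna1. Some others, such as Abi2, Adam17, Cdh8, Ctcf, Ctnnd2, Nectin2, Nectin3, Rbfox3 and the dim cadherins given for orientation, were named after their values were seen. So were the markers Cldn3, Cldn4, Gap43, Krt8, Map2, Myod1, Ocln, Olig2, S100b, Snap25 and Syp. Promoters are from RefSeq (GRCr8), matched by Entrez number. The counting was tested on simulated arrays. Alternatives were median centring, quantile normalization, other floors, filters and folds. Values were computed in Python 3.11.15 with pandas 2.3.3, numpy 2.4.6 and scipy 1.17.1, and plotted with matplotlib 3.10.9.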

Additional observations from a re-analysis of the deposited data

How the results depend on the processing

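With 1 array per condition no replicate could be left out, and no paired analysis was possible because no group holds more than 1 array. Median centring and quantile normalization left 5 genes at least 2-fold higher and 3 at least 2-fold lower, and under both scalings none of the 20 named members crossed 2-fold. Each member had 1 probe set, so the mean of all probe sets and counting each probe set could not change the values. Raising values to the floor left 2 higher genes, without Pcdhb12, Pcdhb20 and Pcdhb22. It moved the median to 0.37, the difference between the floors, which genes below both then take. Leaving out genes below the floor on both arrays gave a median of 0.042, against -0.080 for all named genes at the floor. At 1.5-fold, 7 genes were higher and 7 lower, and at 4-fold 0 were higher and 1 was lower. The shares of all named genes at these folds were not computed. With the 99th percentile of the receptors as floor, 12 genes reached it. Added after the values were seen, leaving out the beta cluster gave 2 higher genes and a median of 0.025. A floor from 1360 receptor probe sets, with symbols of the newer form also counted, was 4.89 on the SMiN array and 4.79 on the C6 glioma array, and raising values to it left 2 higher genes.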

Other observations

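Protocadherins of the alpha and gamma clusters were read only by probe sets that name many genes at once. The alpha probe set, with 15 symbols, was below the floor, with 3.94 on each array. The gamma probe set, with 13 symbols, was above the floor, with 5.52 in SMiNs and 5.58 in C6 glioma. A probe set that names Pcdhb9 and Pcdhb10 together had 4.42 in SMiNs and 4.30 in C6 glioma, below the floor on both.

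Cadherin genes lie in short runs on some chromosomes of GRCr8. On chromosome 2, Cdh6 was higher in SMiNs by 1.76 on the log2 scale, while Cdh9, Cdh10 and Cdh12, the next members in order, lay below the floor with differences of 0, 0.23 and 0. On chromosome 19, Cdh11 stands between Cdh5 (0.29) and Cdh8 (0.77), both below the floor, and Cdh13 farther along had a difference of -2.14. On chromosome 13, Cdh19 had a difference of -1.12, while Cdh20 and Cdh7 had differences of 0.36 and 0.33 with values below the floor.

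Several dim members shared an identical difference to all 5 decimals. Cdh10, Cdh22 and Pcdh8 each had a difference of 0.23236, which 30 probe sets of the array held. Over all probe sets, 110 nonzero differences were each held by 10 or more probe sets, 1932 probe sets (5.27%) in all, and 10 of the 52 genes were among them. Only 1 of these 10, Pcdhb17, reached the floor. Another 11 genes had equal values on both arrays.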
